A study of Caenorhabditis elegans with 8 samples.

Results

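The mpst genes encode the mercaptopyruvate sulfurtransferases of Caenorhabditis elegans. Their RNA was measured in sorted cells of wild-type (N2) animals and of animals carrying skn-1gf(lax188), in which the gene for the stress-response transcription factor SKN-1 has a gain-of-function mutation. All 7 genes named mpst in the RefSeq gene table were taken, of 46928 genes counted, and the family was chosen from a measured pattern, because every skn-1gf library held less mpst-4 than every wild-type library. The difference of mpst-4 between the genotypes is therefore given as a description, without a test.

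There were 8 libraries, 4 of each genotype, labelled as biological replicates, with nothing said of separate cultures, so that p-values measure the spread between these libraries. All animals were synchronised at the L4 stage, grown at the same temperature on the same bacteria, and carried daf-7p::gfp, a reporter that marks the ASI pair of chemosensory neurons. Cells were freed with detergent, reductant and protease and sorted on a cell sorter, and libraries were made from total RNA. The labels' extraction step names homogenised animals, so how sorted cells became RNA is described in part. Gene counts ran from 2976889 to 10740970 per library.

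The sorted material did not look like ASI neurons alone. Summed over 7 genes, ASI markers held 10.3 to 25.1 CPM (counts per 1000000 gene counts, scaled by the trimmed mean of M values, TMM) in wild type and 10.8 to 168 in skn-1gf, while 9 body wall muscle markers held 9806 to 21546 and 6179 to 27269. The reporter's own gene, daf-7, was at 0.474 to 7.98 CPM in wild type and 1.62 to 36.1 CPM in skn-1gf. Wild-type replicate 2 stood apart. It had the fewest genes with a count (11909, against 14248 to 20394 in the other libraries), ribosomal RNA genes took 32.8% of its gene counts (6.90 to 21.8% elsewhere), and it was the highest of the wild-type libraries in 36.1% and the lowest in 46.2% of the 12734 genes tested. The glutathione S-transferase gene gst-4, a common readout of SKN-1 in worms, had 10.5 ± 2.96 CPM in wild type (SD, n = 4) and 76.9 ± 52.5 CPM in skn-1gf. The RNA of skn-1 itself was at 295 ± 108 and 307 ± 68.6 CPM, which does not check the labels of a gain-of-function allele.

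Mercaptopyruvate sulfurtransferase takes 3-mercaptopyruvate, which aminotransferases make from cysteine, and moves its sulfur to a cysteine in its own active site. Thioredoxin or other thiols then release the sulfur as hydrogen sulfide or persulfide. The enzyme has a rhodanese fold, and with cystathionine beta-synthase and cystathionine gamma-lyase it is one of the main sources of hydrogen sulfide in animal cells. In C. elegans hydrogen sulfide is sensed through the cysteine synthase-like protein CYSL-1, which binds the hydroxylase EGL-9 and thereby frees the hypoxia factor HIF-1.

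The annotated gene models divided the family into members of different build (WBcel235 annotation, used for lengths and strands). On chromosome II lies mpst-4 (CELE_F11G11.9), with 3 coding exons for 323 codons. On chromosome IV lie mpst-5 (CELE_Y59H11AM.2) and mpst-6 (CELE_Y59H11AM.3), on opposite strands, 2585 bases apart with 0 annotated genes between them. Both have 300 codons in 3 coding exons of 381, 343 and 176 bases. The first coding exon of mpst-4 is also 381 bases long, and its second, of 342 bases, differs in length by a single base from that of the pair. The remaining genes lie on chromosome V. There mpst-2 (CELE_H12D21.4, 291 codons) and mpst-3 (CELE_H12D21.7, 352 codons) stand 2191 bases apart on opposite strands, with 6 coding exons each, of which the fourth (259 bases) and the fifth (218 bases) have the same length in both. No coding exon length of mpst-1 (CELE_D2023.5, 328 codons, 3 coding exons) or mpst-7 (CELE_R186.6, 421 codons, 5 coding exons) recurred in another member.

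**Figure D1:**
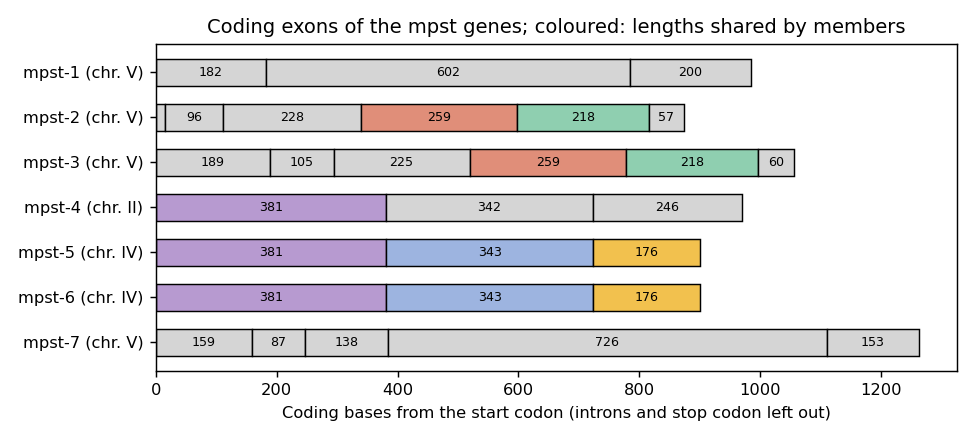
Coding exons of the 7 mpst genes drawn to scale end to end from the start codon, with the length of each exon in bases where it exceeds 50; a colour other than grey marks a length found in more than 1 member. The 381-base first exon is common to mpst-4, mpst-5 and mpst-6, and mpst-2 and mpst-3 have exons of 259 and 218 bases in common.

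These models bear on the counts. Reads that aligned to more than 1 place were 12.3 to 30.3% of all reads and were not assigned to genes, so the counts of mpst-5 and mpst-6, whose exons match in length throughout, are uncertain. Exon bases of mpst-7 overlap those of eif-3.K, a gene for a translation initiation factor on the other strand, by 20 bases, and the strand setting of the counting is not given in the sources used here. The gene H12D21.6 lies inside an intron of mpst-3 on the opposite strand with 0 exon bases in common, and it had 14 counts in all libraries together. No annotated gene overlaps mpst-1 or mpst-4.

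Most of the family's reads came from mpst-1, and 3 members were at or near 0. Over all 8 libraries mpst-1 had 2630 counts, mpst-4 868, mpst-3 392, mpst-7 116, mpst-6 10, mpst-5 2 and mpst-2 0. Every library had counts of mpst-1, mpst-3 and mpst-4, and mpst-7 was detected in 6 of 8. A count of 0 for mpst-2 among 56598916 gene counts allows up to 0.0530 per 1000000 (3 counts of the total), in counting error only. For single libraries the limit is 0.279 to 1.008 per 1000000 gene counts, without TMM scaling. Both counts of mpst-5 were in wild type, in replicates 2 and 4. Wild type held 9 counts of mpst-6 and skn-1gf held 1, which per total gene count is a ratio of 6.07 with a 95% exact interval of 0.841 to 266. Intervals from counts cover counting error only, since reads are not known to be independent molecules.

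Compared per kilobase of exon, the order of the levels differed between the genotypes. In wild type mpst-1 was first at 42.5 ± 7.72 CPM per kb (SD, n = 4), followed by mpst-4 at 27.2 ± 37.6, mpst-3 at 3.38 ± 2.54 and mpst-7 at 1.65 ± 1.29. The ranges of neighbours in this order overlapped in every case, mpst-4 exceeding mpst-1 in wild-type replicate 2 alone. In skn-1gf the order was mpst-1 at 36.1 ± 18.5 CPM per kb, mpst-3 at 7.23 ± 1.36, mpst-4 at 1.26 ± 0.615 and mpst-7 at 1.19 ± 0.984. Here the ranges of mpst-1 and mpst-3 did not overlap, nor did those of mpst-3 and mpst-4, while mpst-4 and mpst-7 did not differ beyond their spread. In both genotypes mpst-6 and mpst-5 were at or below 0.233 CPM per kb on average. The place of mpst-4 in these orders follows from the way the family was chosen.

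The share of mpst-4 in the family's reads is built from the same counts by which the family was chosen, and it is given as a further description of them. In wild-type replicates 1 to 4 it was 13.04%, 66.7%, 4.29% and 19.5% of all mpst counts, and in skn-1gf replicates 1 to 4 it was 1.03%, 2.22%, 3.17% and 4.07%. The skn-1gf shares lay below the wild-type shares, and the 95% Clopper-Pearson intervals of wild-type replicate 3 (2.37 to 7.10%) and skn-1gf replicate 4 (1.33 to 9.23%) overlapped. All mpst genes together summed to 81.4 ± 35.4 CPM in wild type (46.3 to 129.6) and to 51.9 ± 18.6 CPM in skn-1gf (36.8 to 79.03), ranges that overlapped. The highest sum was that of wild-type replicate 2.

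The member that led to the choice of the family, mpst-4, had 8.72, 86.5, 1.99 and 16.1 CPM in replicates 1 to 4 of wild type. Replicates 1 to 4 of skn-1gf had 0.473, 1.76, 1.17 and 1.87 CPM. The underlying counts were 82, 547, 14 and 199 in wild type and 4, 13, 4 and 5 in skn-1gf. Wild-type libraries thus differed among themselves by up to 43.5-fold, whereas the skn-1gf libraries lay within 3.95-fold of each other, on 13 counts or fewer.

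The separation between the genotypes was narrow at its edge. The lowest wild-type value (replicate 3, 1.99 CPM, 95% exact Poisson interval 1.09 to 3.33) stood 1.06-fold above the highest skn-1gf value (replicate 4, 1.87 CPM, interval 0.608 to 4.37). With total counts in place of TMM scaling the ratio of these edges was 1.28. Over all genes tested, 1.15% had every skn-1gf library below every wild-type library. The wild-type mean was 28.3 ± 39.2 CPM and the skn-1gf mean 1.32 ± 0.642 CPM, and medians were 12.4 and 1.46 CPM, 8.50-fold apart.

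The fitted log2 fold change of mpst-4 (skn-1gf minus wild type) was -4.44, a 21.7-fold lower level, given as a description without its SE. Wild-type replicate 2 decided its size: without that library the log2 fold change was -2.76, or 6.75-fold, and the wild-type mean was 8.94 ± 7.07 CPM (n = 3). With each of the other libraries left out in turn it ran from -4.83 to -4.03, and with both libraries numbered 2 left out it was -3.03. The gene passed the low-count filter through its wild-type libraries, all 4 of which exceeded the filter's 1.38 CPM, against 2 of the skn-1gf libraries.

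**Figure D2:**
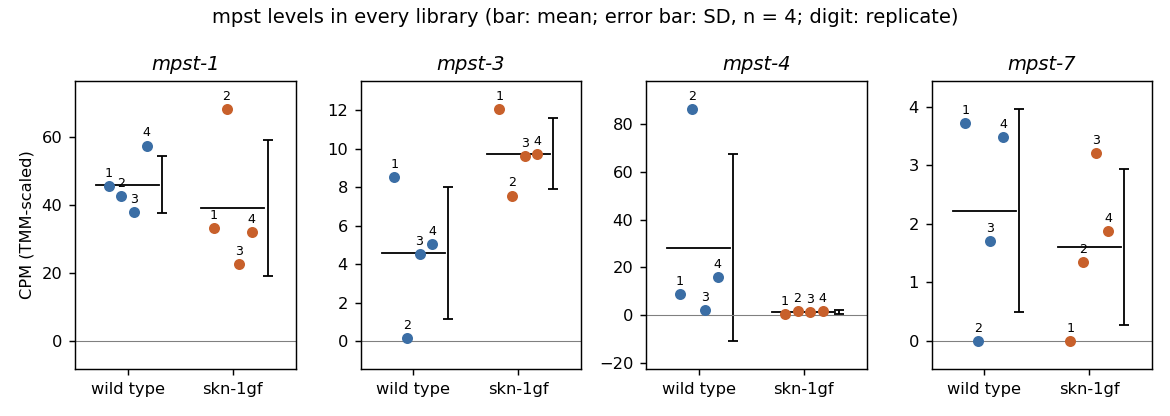
Level of mpst-1, mpst-3, mpst-4 and mpst-7 in every library, in TMM-scaled CPM on a linear axis with its own scale for each gene; points are libraries with their replicate number, the black line is the mean and the error bar the SD (n = 4). Wild-type replicate 2 is far above the others for mpst-4 (86.5 CPM) and lowest of the wild-type libraries for mpst-3 and mpst-7.

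Summed markers of sperm moved with mpst-4 among the wild-type libraries. Hermaphrodites make their sperm in the L4 stage. The 11 sperm markers, which include major sperm protein genes and the sperm phosphatase genes gsp-3 and gsp-4, summed to 365, 1825, 138 and 1041 CPM in wild-type replicates 1 to 4. They summed to 410, 278, 36.5 and 378 CPM in skn-1gf replicates 1 to 4, and all 11 had a negative fitted log2 fold change. The wild-type libraries stood in the same order for both measures, replicate 2 first and replicate 3 last. In skn-1gf the orders differed, since replicate 1 had the highest sperm sum of its genotype and the lowest mpst-4. Single markers did not all follow the wild-type order of the sum. In wild type msp-19, ssp-9 and spe-11 were highest in replicate 4, at 192, 13.9 and 90.4 CPM. They had 181, 3.16 and 34.8 CPM in replicate 2, where the other sperm markers were highest.

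Relative to these markers the genotypes overlapped for mpst-4, a ratio formed after the values were seen. Per 1000 CPM of sperm markers there were 14.4 to 47.4 CPM of mpst-4 in wild type (median 19.7) and 1.15 to 32.0 in skn-1gf (median 5.63). The library above most of the wild-type ones was skn-1gf replicate 3, with 4 counts of mpst-4 and the lowest sperm sum. At sperm sums of 365 to 410 CPM, wild-type replicate 1 had 8.72 CPM of mpst-4 and skn-1gf replicates 1 and 4 had 0.473 and 1.87 CPM. These libraries too were picked after the values were seen, and the direction follows from the way the family was chosen. The part of sperm in the difference was not tested.

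**Figure D3:**
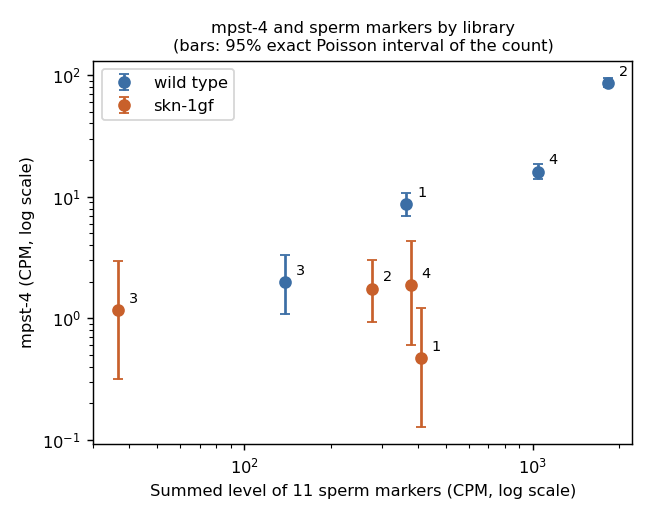
Level of mpst-4 against the summed level of 11 sperm markers in each library, both in CPM on log axes; digits are replicate numbers and vertical bars are 95% exact Poisson intervals of the mpst-4 count. The wild-type points rise from replicate 3 (138 and 1.99 CPM) to replicate 2 (1825 and 86.5 CPM), while the skn-1gf points stay at or below 1.87 CPM of mpst-4 over sperm sums of 36.5 to 410 CPM.

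Markers of the hypodermis, the epidermis that makes the cuticle, differed among themselves in wild-type replicate 2. Their 9 genes summed to 607 CPM there, mostly from the collagen genes rol-6 (296 CPM), dpy-13 (121 CPM) and sqt-3 (97.2 CPM), to 116 to 178 CPM in the other wild-type libraries and to 18.1 to 243 CPM in skn-1gf, with 2 of 7 tested members positive and 5 negative. The hypodermal transcription factor gene elt-3 went the other way in that library, with 0.632 CPM against 22.3 to 31.9 CPM in the other wild-type libraries, and so did nlp-29, an antimicrobial peptide gene, with 32.6 against 54.3 to 96.3 CPM. Markers of germline and oocytes varied less, at 4064 to 6478 CPM in wild type and 3877 to 6530 in skn-1gf. The same wild-type order as for mpst-4 and the sperm sum held here too, with 4770, 6478, 4064 and 6051 CPM in replicates 1 to 4. Intestine markers ran from 4536 to 18638 and from 1739 to 22583 CPM. The part of these cell types in the level of mpst-4 was not tested, and in bulk libraries fewer cells of a type and less RNA per cell cannot be told apart.

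The genes most like mpst-4 in pattern over the 8 libraries were picked by their nearness to its values, so their levels in single libraries follow from that choice. Likeness was the root mean square (RMS) difference of log2 CPM after centring each gene on its own mean, and its median over all genes tested was 2.25. The nearest 8 were T09F5.10 (0.411), fbxa-155 (0.454), T02B11.9 (0.524), Y54E2A.5 (0.552), M28.4 (0.595), fog-3 (0.600), W03D8.2 (0.600) and Y22D7AR.2 (0.627). Of these fog-3 encodes a Tob-family protein required for germ cells to become sperm, and what the others encode is not described here. Through the choice by nearness, all 8 were at 21.2 to 68.8 CPM in wild-type replicate 2 and at 0 CPM in skn-1gf replicate 1. Those were the libraries highest and lowest in mpst-4. Other members lay farther off, mpst-1 at an RMS difference of 1.97, mpst-7 at 2.72 and mpst-3 at 3.42.

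The dominant member, mpst-1, had 45.7, 42.8, 37.9 and 57.6 CPM in replicates 1 to 4 of wild type. It had 33.2, 68.4, 22.8 and 32.2 CPM in replicates 1 to 4 of skn-1gf. The groups overlapped. On this TMM scale skn-1gf replicate 2 was above every wild-type library and the other skn-1gf libraries were below all of them. No difference was detected (log2 fold change -0.23, SE 0.39, 95% confidence interval -1.08 to 0.61; adjusted p = 0.999989 in edgeR over all genes). It was -0.66 without skn-1gf replicate 2, still far from the threshold. Unlike mpst-4, mpst-1 was near the other wild-type libraries in replicate 2 with TMM scaling. Its coefficient of variation in wild type was then 18.2%, against 138% for mpst-4. Scaled by total counts instead, mpst-1 was at 28.1 CPM in wild-type replicate 2, against 48.8 to 66.2 CPM in the other wild-type libraries. On that scale skn-1gf replicates 1 and 4 lay above wild-type replicate 2. The genes most like mpst-1 in pattern were tofu-1 (RMS difference 0.068), which encodes a factor of piRNA production, Y57A10A.6 (0.085) and rpn-6.2 (0.087).

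Levels of mpst-3 were higher on average in skn-1gf, within the spread of the libraries. They were 8.51, 0.158, 4.54 and 5.02 CPM in wild-type replicates 1 to 4 and 12.1, 7.56, 9.63 and 9.73 CPM in skn-1gf replicates 1 to 4. Wild-type replicate 1 lay above skn-1gf replicate 2, and wild-type replicate 2 rested on a single count. The log2 fold change of 1.09 (SE 0.91, interval -0.88 to 3.06) did not pass the test (adjusted p = 0.999989 in edgeR), and it was 0.68 without wild-type replicate 2 and 1.71 in limma-voom. Nearest in pattern were sma-3 (RMS difference 0.223), which encodes a Smad of body-size TGF-beta signalling, C09B8.4 (0.233) and the Grb2-type adaptor gene sem-5 (0.239). All 3, like mpst-3, were lowest in wild-type replicate 2, at 0 to 1.42 CPM, which follows from the choice by nearness.

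Both genotypes had a library without mpst-7. Wild-type replicates 1 to 4 had 3.72, 0, 1.70 and 3.48 CPM of it, and skn-1gf replicates 1 to 4 had 0, 1.35, 3.21 and 1.87 CPM. The groups overlapped over nearly their whole range, and the log2 fold change of -0.51 (SE 1.40, interval -3.56 to 2.53) did not pass the test (adjusted p = 0.999989 in edgeR). Its interval covers a change of more than 5-fold in either direction, so little could be detected at this depth. The eif-3.K gene that overlaps mpst-7 was at 46.5 ± 18.7 and 59.1 ± 26.96 CPM. The nearest genes in pattern were C07B5.8 (RMS difference 0.255), T26F2.2 (0.277) and T27E7.10 (0.293). Through the choice by nearness, they were at 0 CPM in the same pair of libraries as mpst-7.

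Of mpst-1, mpst-3 and mpst-7, edgeR called 0, and it called 0% of the 12734 genes tested (adjusted p under 0.05). Without adjustment 518 genes had p under 0.05, 4.07% of those tested (1.44% higher and 2.62% lower in skn-1gf), and none of these 3 members did, with unadjusted p from 0.253 to 0.721 in edgeR. DESeq2, run without the low-count filter, called 4 genes and limma-voom 0, none of the 3 members among them. Over all genes the 95% interval of a log2 fold change reached a median of 1.44 above and below its value.

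**Figure D4:**
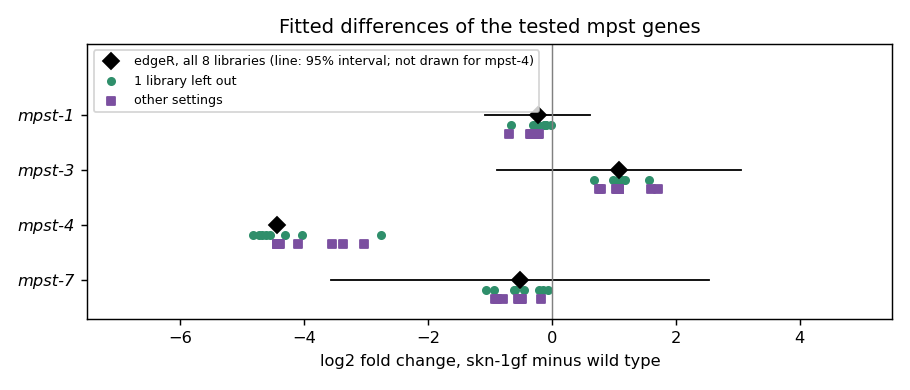
Log2 fold change (skn-1gf minus wild type) of the 4 mpst genes that passed the low-count filter; diamonds are the edgeR values from all 8 libraries with their 95% confidence intervals (not drawn for mpst-4, which was chosen by this difference), circles leave out 1 library each, and squares are other scalings, filters, tools and models. The values of mpst-4 lie between -4.83 and -2.76, those of mpst-3 are all positive and those of mpst-1 and mpst-7 are all negative in the settings run, with intervals across 0.

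The genes around the mpst step were examined in 6 lists of sulfur metabolism. Of 44 names 42 were matched and 35 passed the low-count filter. None was called by edgeR, DESeq2 or limma-voom, and at an unadjusted p under 0.05 there was 1, sams-5. Positive log2 fold changes numbered 15 and negative ones 20, with a median of -0.07, whereas over all genes tested 53.7% were positive and 46.3% negative, with a median of 0.04. For ethe-1 and vhl-1 the lowest skn-1gf library exceeded the highest wild-type one with TMM scaling, as in 1.01% of all genes tested. The margins were small, 5.43 against 5.61 CPM for ethe-1 and 4.04 against 4.12 CPM for vhl-1. With total counts in place of TMM scaling the groups overlapped for both genes.

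In the methionine cycle, which leads to homocysteine, 1 of 8 tested members was positive and 7 were negative, with a median of -0.18. This median was positive, at 0.079, once wild-type replicate 2 was left out, and 0.047 when both libraries numbered 2 were. S-adenosylmethionine synthetase gene sams-5 had 19.7, 122.3, 10.2 and 51.8 CPM in replicates 1 to 4 of wild type and 25.1, 11.8, 2.63 and 13.8 CPM in those of skn-1gf (log2 fold change -1.92, SE 0.78, adjusted p = 0.999989 in edgeR). As with mpst-4, its wild-type values were highest in replicate 2, next in replicate 4 and lowest in replicate 3, and without replicate 2 of wild type its log2 fold change was -1.03. The methionine synthase gene metr-1 was at 360.02 ± 152 and 243 ± 61.5 CPM, and mthf-1, for methylenetetrahydrofolate reductase, at 164 ± 64.9 and 129 ± 36.9 CPM.

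Genes that make cysteine, sulfide or 3-mercaptopyruvate had 5 positive and 5 negative values among 10 tested, with a median of 0.05, whose sign changed among the alternatives (-0.073 to 0.55). The cystathionine gamma-lyase gene cth-1 had 2.74 ± 2.38 CPM in wild type against 9.85 ± 5.77 CPM (log2 fold change 1.83, SE 1.11), with 0 CPM in wild-type replicate 2, without which the log2 fold change was 1.38. The aminotransferase gene got-2.2 was at 140.3 ± 55.0 and 175 ± 84.5 CPM. In the other direction cysl-4, of the cysteine synthase-like family, had 4.91 ± 7.21 CPM in wild type against 0.484 ± 0.640 CPM (log2 fold change -3.22, SE 1.53), its wild-type mean resting on 15.6 CPM in replicate 2; without that library it did not pass the low-count filter. Below the filter, cbs-2, a cystathionine beta-synthase gene chosen here after its values were seen, totalled 153 wild-type counts against 11 for skn-1gf, and it too was highest in wild-type replicate 2 (13.3 CPM).

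Thioredoxins and their reductases, which take up or release the persulfide sulfur, had 1 positive and 3 negative values, with a median of -0.14. The mitochondrial thioredoxin gene trx-2 was at 33.1 ± 13.1 and 27.2 ± 9.11 CPM, the mitochondrial reductase gene trxr-2 at 12.7 ± 1.01 and 10.7 ± 5.01 CPM, and trx-4 at 17.5 ± 12.9 and 22.5 ± 6.71 CPM. Of these trx-4 had 0.158 CPM in wild-type replicate 2. Among the 3 members below the filter, trx-3, chosen after its values were seen, had 24.97 CPM in that library and at most 4.12 CPM elsewhere.

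Of the genes that oxidise sulfide, sulfite and cysteine, 3 of 4 tested were positive and 1 negative, with a median of 0.40. The persulfide dioxygenase gene ethe-1 had 5.43, 0, 3.27 and 3.81 CPM in replicates 1 to 4 of wild type and 13.96, 9.59, 6.71 and 5.61 CPM in those of skn-1gf (log2 fold change 1.52, SE 1.04, adjusted p = 0.999989 in edgeR). With TMM scaling its groups were apart by a small margin, 5.43 against 5.61 CPM, and with total counts they overlapped. Without wild-type replicate 2 the log2 fold change was 1.09. The sulfide:quinone oxidoreductase gene sqrd-1 was at 12.1 ± 4.83 and 17.7 ± 4.38 CPM, and the cysteine dioxygenase gene cdo-1 at 20.01 ± 5.14 and 12.8 ± 6.93 CPM.

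The genes for the molybdenum cofactor, which sulfite oxidase needs, had 3 positive and 1 negative value among 4 tested, with a median of 0.14. Levels were 5.45 ± 3.56 and 11.1 ± 2.12 CPM for moc-1, 13.998 ± 13.1 and 12.4 ± 6.79 CPM for moc-5, and 3.60 ± 2.58 and 4.22 ± 1.97 CPM for moc-2. No gene of this list passed the test in edgeR.

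Sensing of sulfide through EGL-9 and HIF-1 had 2 positive and 3 negative values among 5 tested genes, with a median of -0.03, whose sign changed among the alternatives (-0.23 to 0.45). The gene for VHL-1, a ubiquitin ligase subunit that binds hydroxylated HIF-1, had 2.68 ± 1.84 CPM in wild type against 6.87 ± 3.62 CPM (log2 fold change 1.35, SE 1.08), again with 0 CPM in wild-type replicate 2, without which it was 0.92 on the log2 scale. Values for aha-1, which encodes the partner of HIF-1, were 21.5 ± 8.54 and 19.6 ± 4.99 CPM, and those for rhy-1, a regulator of this pathway, were 42.9 ± 29.5 and 39.9 ± 16.2 CPM. The EGL-9 gene itself, named outside the rule for examples, was at 96.0 ± 37.8 and 97.7 ± 37.8 CPM.

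**Figure D5:**
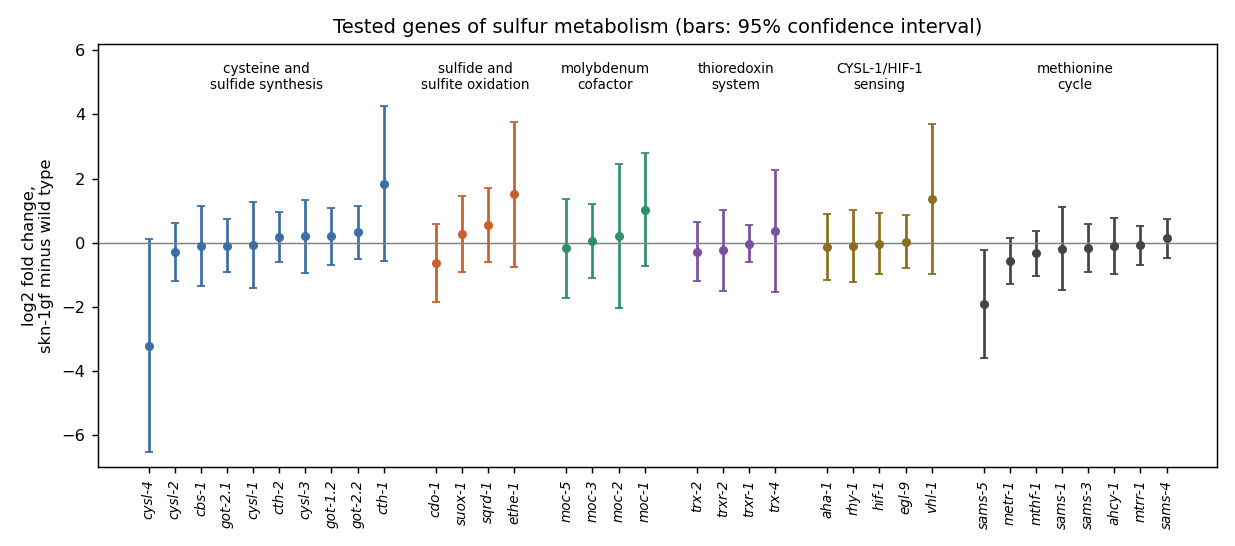
Log2 fold change (skn-1gf minus wild type) of the 35 tested genes of 6 sulfur metabolism lists, ordered within each list; points are edgeR values and bars their 95% confidence intervals. The values run from -3.22 (cysl-4) to 1.83 (cth-1), and the interval of sams-5 alone does not reach 0 before adjustment for the number of genes.

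Among these 35 genes wild-type replicate 2 was the highest wild-type library in 19 (54.3%) and the lowest in 13 (37.1%). Over all genes tested these shares were 36.1% and 46.2%. For the 4 tested mpst genes wild-type replicate 2 was highest in 1 (mpst-4) and lowest in 2 (mpst-3 and mpst-7). At 25% and 50% these are near the shares over all genes.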

How the data were processed

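Whole-number read counts per gene, 1 file per library, were deposited by the authors and taken unchanged. Named in the submitters' processing notes are the build ce10, the aligner STAR (2.7.6a), the counter HTSeq (2.0.2), R (3.5.2) and DESeq2. For strand setting, annotation release and duplicate handling, nothing is given in the sources used here. Of 46928 locus tags, 46919 were matched to symbols in the RefSeq gene table of WBcel235. Gene models came from the Ensembl WBcel235 annotation, and because the builds differ no coordinates are given. Summary lines stayed out of library sizes. Reads with no feature were 2.76 to 14.4% of uniquely aligned reads.

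Genes passing filterByExpr (minimum count 10, minimum total 15) were tested on genotype alone with edgeR 4.0.16 in R 4.3.3 (TMM, glmQLFit, glmQLFTest), with p-values adjusted by Benjamini-Hochberg over 12734 genes at a threshold of 0.05. The pipeline was tested on simulated data. CPM were scaled by TMM-adjusted library size, and log2 CPM used a prior count of 2. Exon length was the union of annotated exons.

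Alternatives were DESeq2 1.42.0 (without the low-count filter), limma-voom (limma 3.58.1), other scalings and filters, protein-coding genes only, a replicate block and libraries left out. The members, gene lists and tests were chosen with earlier results of these data known. The naming rule took all mpst genes, gst-4, skn-1 and daf-7, in each list the 3 tested genes of smallest p, and the 8 (for mpst-4) or 3 genes nearest in pattern. The names sqrd-2 and moc-4 were not matched.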

Additional observations from a re-analysis of the deposited data

Results flagged for a closer look

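In the wild-type group, the mpst-4 level of replicate 2 (86.5 CPM) lay apart from those of the other 3 libraries (1.99 to 16.1 CPM), its gap to the next value being 0.833 of the whole range. These values had a part in the choice of the family, so this is a description, and it depends on the scale. The gap was 0.705 of the range with total-count scaling (56.7 against 18.5 CPM) and 0.457 on the log2 CPM scale, and on neither did it pass the limit for 4 values that it just passed with TMM scaling. It was the only value picked out among 8 groups of libraries examined for the mpst genes, and chance picks out about 1 group in 20. The same library held the highest sum of sperm markers (1825 CPM), whose part in the value was not tested.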

How the results depend on the processing

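In the 18 alternatives run, log2 fold changes kept their sign for mpst-1 (-0.69 to -0.01), mpst-3 (0.68 to 1.71), mpst-4 (-4.83 to -2.76) and mpst-7 (-1.07 to -0.06). No setting called mpst-1, mpst-3, mpst-7 or any of the sulfur genes. Without the low-count filter sams-5 was just short of the threshold (adjusted p = 0.0502 in edgeR). The number of genes called rose from 0 to 159 without the low-count filter (51 higher, 108 lower) and to 4 with DESeq2 (2 higher, 2 lower), which was also run without that filter, so tool and filter changed together (the cause was not tested), and was 0 in the rest. Same-numbered libraries deviated from their genotype means with correlations of -0.014, 0.064, 0.513 and 0.059, against -0.384 to 0.376 between different numbers. The highest of all was the 0.513 of the libraries numbered 3. Whether the numbers mark a shared day or batch cannot be told from these values. With the replicate block 0 genes were called, and mpst-4 was at -3.55 and mpst-1 at -0.34.

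Signs turned in sulfur genes near 0, none of them called, and the cause was not tested. With single libraries left out, aha-1 ran from -0.27 to 0.18, moc-2 from -0.19 to 0.54, moc-5 from -0.54 to 0.70, rhy-1 from -0.38 to 0.42, trx-2 from -0.51 to 0.028 and trx-4 from -0.054 to 0.78. With both libraries numbered 2 left out, moc-2 was at -0.30, moc-5 at 0.91, rhy-1 at 0.69 and trx-4 at -0.18. Total-count scaling gave -0.072 for moc-2, limma-voom 0.14 for moc-5, and the replicate block 0.091 for moc-5 and 0.12 for rhy-1. Without wild-type replicate 1 or 2, without both libraries numbered 2, and under the stricter filter, cysl-4 was not tested. With both libraries numbered 2 left out, the medians of the cysteine and sulfide synthesis list and the sensing list were 0.55 and 0.45. The median of the methionine cycle turned from -0.18 to 0.047 there and to 0.079 without wild-type replicate 2. Over all alternatives the synthesis median ran from -0.073 to 0.55, the sensing median from -0.23 to 0.45, the molybdenum cofactor median from -0.070 to 0.41, the thioredoxin median from -0.36 to 0.027 and the oxidation median from 0.16 to 0.71. Depth limits mpst-2, mpst-5 and mpst-6, with 0, 2 and 10 counts, and mpst-4 in skn-1gf, with 26.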
